A study of Mus musculus with 12 samples.

Results

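Untreated mouse embryonic fibroblasts that lack ATF6a were compared with untreated wild type fibroblasts for their miRNA content, taking 4 of the 12 arrays of the study: 2 of ATF6aKO cells and 2 of ATF6aWT cells, both on a C57BL/6 background. The 4 arrays were chosen by their genotype and treatment labels, and all 611 mouse miRNAs with probes on the array were considered. Of these, 171 were bright enough to be tested, together with 1 viral miRNA. The other 8 arrays held the same genotypes after 12 or 24 h in 2 ug/mL tunicamycin, which blocks N-linked glycosylation, and the study as a whole asked which miRNA responses to it need ATF6a. The 2 arrays of a group came from experiments described as independent. Since a miRNA array carries no probe for a messenger RNA, ATF6a itself was not measured and the genotype of each array rests on its label. Neither how the knockout was made nor whether the fibroblasts came from several embryos is given in the sources used here.

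ATF6a is a transcription factor held as a precursor in the membrane of the endoplasmic reticulum. When unfolded proteins accumulate there, it moves to the Golgi, is cut by proteases, and its released part activates chaperone genes in the nucleus, as 1 arm of the unfolded protein response. miRNAs are short RNAs that pair with messenger RNAs mainly through their seed, bases 2 to 8, and lower the output of those messages. miRNAs with the same seed form a family with overlapping targets, and miRNAs encoded close together are often cut from 1 shared transcript.

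The miRNAs printed first are those of the genotype difference whose relatives make the comparison: members of a seed family that moved apart, members that moved together, and neighbours in the genome with different seeds. Mature sequences are RefSeq's on GRCm38.p6, 5′ to 3′, with the seed in capitals. In the miR-10 family the members were called in opposite directions and in the miR-99/100 family 1 of 3 tested was called, while in those of miR-148a, miR-221 and miR-27 both members shown were called in the same direction.
miR-10a: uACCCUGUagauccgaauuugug
miR-10b: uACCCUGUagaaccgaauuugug
miR-99a: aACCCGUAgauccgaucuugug
miR-100: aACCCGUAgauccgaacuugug
miR-148a: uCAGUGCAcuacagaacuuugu
miR-152: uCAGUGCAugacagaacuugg
miR-221: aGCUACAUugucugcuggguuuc
miR-222: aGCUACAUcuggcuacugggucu
miR-27a: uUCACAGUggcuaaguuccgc
miR-27b: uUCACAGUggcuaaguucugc
The next 4 are from the imprinted Dlk1-Dio3 locus on chromosome 12 and share no seed.
miR-379: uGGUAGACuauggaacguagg
miR-410: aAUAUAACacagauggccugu
miR-376b: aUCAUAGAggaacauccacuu
miR-127: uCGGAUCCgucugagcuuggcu

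All 4 untreated arrays lay on 1 slide. Replicate 1 of both genotypes was scanned in one run and replicate 2 of both in another, so each run holds a knockout and a wild type array. The knockout arrays sat in row 2 of the slide and the wild type arrays in row 1, so genotype and slide row cannot be told apart. The knockout arrays had 162 and 169 mouse miRNAs well above background, against 167 and 160 on the wild type arrays. Their 75th percentiles of bright probes, by which levels were scaled, were 182.2 and 153.8 intensity units on the knockout arrays, against 129.9 and 145.4 on the wild type arrays. Each level below is a log2 value on which 0 is that percentile of its own array, and differences are knockout minus wild type ± SE with 2 arrays per genotype. A miRNA is called measured where all its used probes were well above background and over the signal floor on all 4 arrays, as 117 mouse miRNAs were.

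The labelled cell type was checked against marker miRNAs. Of 20 miRNAs listed as mesenchymal or fibroblast, 14 were well above background on at least 1 untreated array and 12 on all 4. The muscle-associated miR-145, also on that list, was not well above background on any. None of 7 haematopoietic, 2 endothelial, 12 epithelial, 6 neural, 5 muscle and 1 liver miRNAs was well above background on any of the 4 arrays, and of 21 embryonic stem cell miRNAs 1 was, on 1 array. The brightest miRNA was miR-21, a miRNA common in growing fibroblasts, at 5.96 and 5.93 in knockout cells and 6.12 and 6.09 in wild type cells. Its difference of -0.16 ± 0.05 did not pass the test (limma, adjusted p = 0.0733), although the genotypes did not overlap. The next brightest were miR-125b-5p, with a difference of 0.19 ± 0.11, miR-199a-3p, miR-720, with -0.13 ± 0.14, miR-22, with -0.20 ± 0.10, and let-7i, with -0.12 ± 0.07. Of these 6, miR-199a-3p alone passed the test.

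Across the array the genotypes differed widely. limma with Benjamini-Hochberg adjustment called 93 of 172 miRNAs at 0.05, which is 54.1% of those tested, with 36 higher (20.9%) and 57 lower (33.1%) in knockout cells. The median difference over all tested was 0.01. In 135 miRNAs, 78.5%, both knockout arrays lay beyond both wild type arrays. Of the 93 calls, 57 were of measured miRNAs, 28 higher and 29 lower. The others include miRNAs not well above background in 1 genotype, whose direction was fixed by the choice of miRNAs to test. The largest differences were falls of at least 3.79-fold for miR-10a, which reached the signal floor in knockout cells, and of 3.34-fold for miR-129-3p, while the largest measured rise was 1.91-fold, for miR-10b. Within the first and the second scanning run, miR-10a differed by -1.86 and -1.99, miR-129-3p by -1.69 and -1.79, miR-10b by 1.04 and 0.82, and the median over all tested by 0.07 and -0.05. The split into higher and lower depends on the scaling. With the 75th percentile taken over all probes, which moved the median difference to 0.27, 37 of 51 calls were higher, and with no scaling, where it was 0.28, 31 of 36 were. After normexp background correction, with a median of -0.12, 25 of 92 were higher. Without wild type replicate 1, limma called 0 (66 at an unadjusted p under 0.05), and without wild type replicate 2 it called 26, all lower. Scaling on the labelling spike-ins left 0 calls (1 at an unadjusted p under 0.05), and 72, 47 of them higher, when the scanning run was added as a block. The scanner software flagged these spike-ins as out of range on every untreated array and as in range on every treated array. Their log2 means were 6.83 (knockout) and 6.64 (wild type) in the first scanning run, against 5.38 and 5.46 in the second. In the scanner software's summed signal 45 of 57 calls were higher. In bulk RNA of this kind, fewer cells that carry a miRNA and less of it per cell cannot be told apart.

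**Figure D1:**
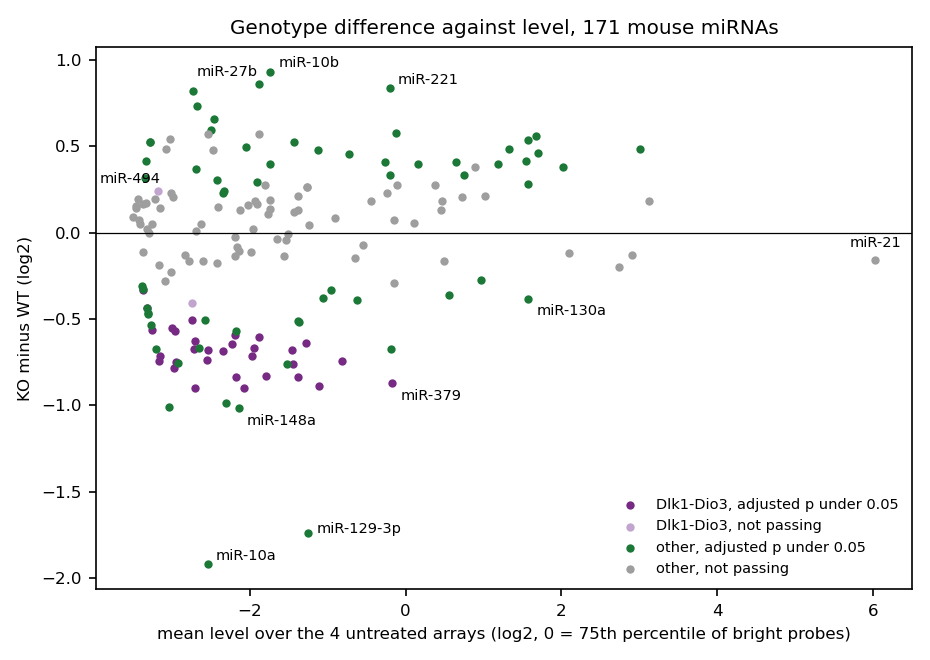
Knockout minus wild type difference (log2) of each of the 171 mouse miRNAs tested against its mean level on the 4 untreated arrays (log2, 0 is the 75th percentile of bright probes). Purple points are miRNAs of the Dlk1-Dio3 locus, which lie below 0 except miR-494, and miR-10a and miR-129-3p lie apart at the bottom.

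Of the 57 falls, 31 came from the Dlk1-Dio3 locus on chromosome 12, an imprinted region whose miRNAs are made from the maternal chromosome, in long noncoding transcripts that include the antisense transcript of Rtl1 and Mirg. Of its 75 miRNAs on the array, 33 were tested, and 31 of these fell in knockout cells, against 33.1% of all miRNAs tested, while 0 rose. Outside the locus 26 of 138 mouse miRNAs fell and 36 rose. The median difference was -0.68 in the locus and 0.14 among mouse miRNAs outside it. The 2 scanning runs gave locus medians of -0.62 and -0.75. Of the 33, 18 were measured, and 17 of those fell. The calls, more than the sizes, depend on the arrays and the scaling: 14 of the 33 were called without wild type replicate 2 and 0 without wild type replicate 1, 7 with all probes in the scaling, and 0 with no scaling, with scaling on the labelling spike-ins or in the deposited table.

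The tested miRNAs with a RefSeq position, 32 of them, spanned 158 kb in 2 stretches. The first, chr12:109585789-109618336 on the + strand, runs from the antisense side of Rtl1 to miR-370. miR-127 is encoded opposite Rtl1, a retrotransposon-derived gene needed in the placenta, and directs cleavage of its message. It read -1.17 and -1.21 in knockout cells, against -0.51 and -0.38 in wild type cells, a fall of 1.67-fold (difference -0.74 ± 0.07, limma, adjusted p = 0.00507). Its neighbour miR-433 read -2.53 and -2.68 in knockout cells, against -1.77 and -1.76 in wild type cells, a fall of 1.79-fold. For both, the knockout arrays lay below both wild type arrays. The 2 arms of the miR-434 hairpin fell alike, miR-434-3p by 0.83 and miR-434-5p by 0.71 on the log2 scale. All 8 tested miRNAs of this antisense stretch fell. miR-370, at its far end, was not well above background in knockout cells and was at least 1.24-fold lower there. Its mean levels were -3.54 in knockout cells, which is the floor, and -3.21 in wild type cells (limma, adjusted p = 0.014).

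The second stretch, chr12:109709060-109743795, holds the large cluster that ends in Mirg. miR-379, the first of it and the brightest miRNA of the locus, read -0.51 and -0.71 in knockout cells and 0.29 and 0.23 in wild type cells. It fell 1.83-fold (difference -0.87 ± 0.09, limma, adjusted p = 0.00536). miR-410, at the other end, read -1.52 and -1.60 in knockout cells and -0.63 and -0.72 in wild type cells, and fell 1.85-fold (-0.89 ± 0.07, adjusted p = 0.00372). The difference between these 2 miRNAs was not tested. Between them miR-495 fell by 0.90, miR-376b by 0.90, miR-377 by 0.83, miR-376a by 0.76, miR-300 by 0.68 and miR-382 by 0.68. For miR-376b the knockout arrays read -3.14 and -3.16 and the wild type arrays -2.24 and -2.26. miR-409-5p was not well above background in knockout cells and was at least 1.34-fold lower there. Its mean levels were -3.54 in knockout cells, which is the floor, and -3.10 in wild type cells (limma, adjusted p = 0.00794).

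The exceptions were miR-494 and miR-411*. miR-494, inside the second stretch, read -3.12 and -2.99 in knockout cells, against -3.41 and -3.18 in wild type cells, and its difference of 0.24 ± 0.11 did not pass the test (adjusted p = 0.136). With the scanning run as a block it did (adjusted p = 0.023), and after normexp its difference was -0.12. miR-411*, with 1 of 2 probes at the floor in knockout cells, had a difference of -0.41 (adjusted p = 0.0567, and 0.00016 with the block). The 29 locus miRNAs with a RefSeq sequence had 29 different seeds, although miR-376a and miR-376b, both of 21 bases, differ by only 3 substitutions (G4A, A13C and G20U, miR-376a's base first, counted from the 5′ end). Relative to the miRNAs outside it, the locus median was -0.81, and -0.27 after normexp, -0.34 with the floor doubled and 0 with no filter on dim probes. It was between -0.73 and -0.90 under the other alternatives, including a scaling that left the locus out, with -0.81.

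**Figure D2:**
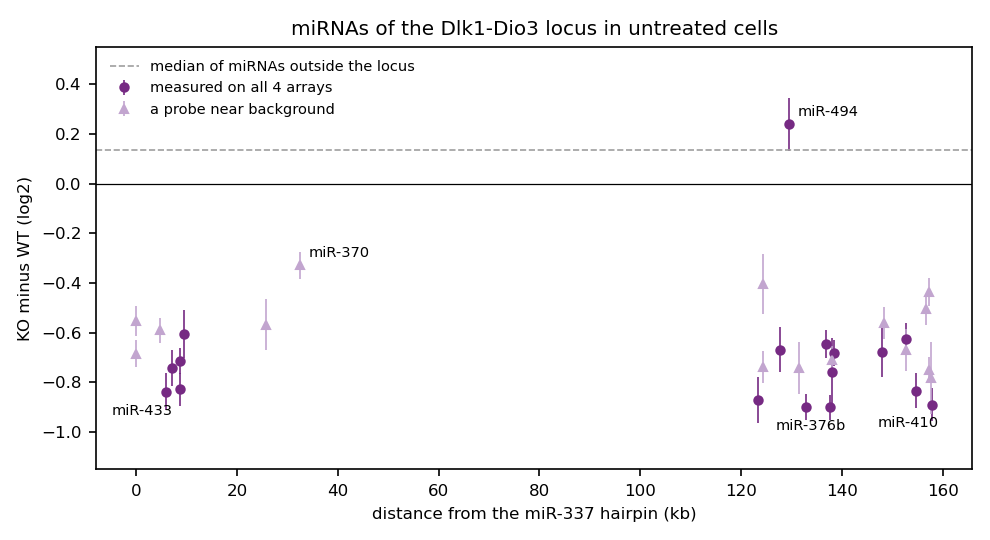
Knockout minus wild type difference (log2, bars are SE, 2 arrays per genotype) of 32 Dlk1-Dio3 miRNAs against distance from the miR-337 hairpin in kb on chromosome 12. Dark circles are measured on all 4 arrays and pale triangles have a probe near background; all but miR-494 lie below the dashed median of the miRNAs outside the locus.

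In the miR-10 family the 2 members were called in opposite directions. They lie in Hox gene clusters, miR-10a in HoxB at chr11:96317186-96317208 and miR-10b in HoxD at chr2:74726074-74726096, both on the + strand, and differ by U12A (miR-10a's base first, counted from the 5′ end), outside the seed. miR-10a read -3.47 and -3.54 in knockout cells, against -1.61 and -1.55 in wild type cells. Of its 2 probes, 1 was at the floor in knockout replicate 1 and both in knockout replicate 2, so the difference of -1.92 (limma, adjusted p = 0.00206) is set by the floor and stands for a fall of at least 3.79-fold. The probes taken singly gave -2.51 and -1.33, with the same limit. miR-10b moved the other way, with -1.22 and -1.32 in knockout cells against -2.26 and -2.15 in wild type cells, a rise of 1.91-fold (0.93 ± 0.08, adjusted p = 0.00372). Probes for miRNAs that differ by 1 base can share signal, and how far these do was not tested. The miR-196 genes of the Hox clusters both fell. miR-196a read -2.50 and -2.42 in knockout cells and -1.94 and -1.84 in wild type cells, a fall of at least 1.48-fold, since 1 of its 4 probes was at the floor in knockout replicate 1 (adjusted p = 0.007). miR-196b was well above background on 1 of 2 knockout arrays but under the floor of -3.54 on both, and read -2.87 on each wild type array, a fall of at least 1.59-fold (adjusted p = 0.00372). So 3 of the 4 tested Hox miRNAs fell and 1 rose, against 33.1% lower and 20.9% higher of all tested. This tally turns with the summary of the signal: in the scanner software's summed signal 3 of 5 tested rose and 1 fell, with a median of 0.88, and in the deposited table after median-centring 3 of 4 rose and 0 fell.

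The direction for miR-10a depends on how its signal is summed. The scanner software's own summed signal per miRNA, from which the deposited table was made, was 9.13 and 9.72 times the sum of the miR-10a probe signals on the knockout arrays, and 1 times on each wild type array. In that summed signal miR-10a was 0.88 higher in knockout cells, on the log2 scale (limma, adjusted p = 0.0258). miR-196b and miR-434-5p behaved in the same way, with 4.14 and 4.74 times and 3.17 and 3.02 times on the knockout arrays and 1 on the wild type arrays. Over all detected miRNAs, the summed signal was within 5% of the probe sum for 128 to 139 of 197 to 208 per untreated array and over 2-fold above it, or set against a probe sum of 0 or less, for 56 to 59. miR-10b, miR-148a and miR-379 were among those where the sums were equal on all 4 arrays. Of the called miRNAs described here, the summed signal turned the direction of miR-10a, miR-196b, miR-434-5p, miR-129-3p, miR-376b, miR-182, miR-224, miR-130b, miR-149 and miR-24-1*. There miR-10a, miR-196b, miR-434-5p and miR-224 passed the test as higher in knockout cells (limma, adjusted p = 0.0258 for each), and the others did not pass. The cause of the gap was not tested.

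Both miR-129 arms passed the test as lower in knockout cells. miR-129-3p, from a hairpin best known in brain, read -2.05 and -2.19 in knockout cells, against -0.35 and -0.40 in wild type cells. It had 1 used probe and was the largest measured fall, 3.34-fold (-1.74 ± 0.08, limma, adjusted p = 0.00348). miR-129-5p was at the floor of -3.54 on both knockout arrays and read -2.54 and -2.51 on the wild type arrays, a fall of at least 2.02-fold (adjusted p = 0.00372). The 6 neural miRNAs listed as markers, which do not include miR-129, were not well above background. As with miR-10a, the summed signal of miR-129-3p exceeded its probe signal on the knockout arrays, 4.99 and 6.00 times, and on wild type replicate 2, 3.40 times, and in it the difference was 0.11.

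miR-148a and miR-152 form a family whose members target the DNA methyltransferase gene Dnmt1 among others, and both fell. miR-148a read -2.66 and -2.65 in knockout cells and -1.72 and -1.56 in wild type cells, a fall of 2.02-fold (-1.02 ± 0.08, adjusted p = 0.00372). miR-152, with the same seed and encoded on another chromosome, read -3.23 and -3.36 in knockout cells and -2.58 and -2.50 in wild type cells, a fall of at least 1.68-fold, with 1 of its 2 probes at the floor on both knockout arrays (adjusted p = 0.00507). In the miR-99/100 family, by contrast, miR-99a alone of 3 tested members fell. It read -2.78 and -2.82 in knockout cells and -1.87 and -1.75 in wild type cells, a fall of at least 1.99-fold, again with 1 of 2 probes at the floor in knockout cells (adjusted p = 0.00372). miR-100, which differs from it by U16A (miR-99a's base first), had a difference of -0.03 ± 0.08 and miR-99b one of -0.01 ± 0.08, with overlapping genotypes for both; the difference between these members was not tested.

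Further falls were spread over the genome. miR-155, a miRNA of immune activation that fibroblasts also make, read -1.90 and -1.91 in knockout cells, against -1.24 and -1.04 in wild type cells, and fell 1.70-fold (-0.76 ± 0.09, adjusted p = 0.00665). miR-322, the mouse counterpart of miR-424 and a member of the seed family of miR-16, read -0.45 and -0.60 in knockout cells and 0.13 and 0.17 in wild type cells, a fall of 1.60-fold (-0.68 ± 0.08, adjusted p = 0.00633). miR-16 itself had a difference of 0.18 ± 0.09 (adjusted p = 0.173), and the other 4 tested miRNAs of that group did not pass either; with the scanning run as a block 2 of the 6 were called. miR-210, the miRNA most often induced by low oxygen, fell by at least 0.67, with 1 of 2 probes at the floor in knockout cells. The 3 miRNAs of the miR-183 cluster on chromosome 6, best known in sensory organs, were all called lower, against 33.1% of all tested. Of the 3, miR-96 alone was measured. miR-96 fell by 0.51 and miR-183 by at least 0.51, with 1 of 2 miR-183 probes at the floor in knockout cells. miR-182 was at least 1.37-fold lower, with mean levels of -3.54 in knockout cells, the floor, and -3.07 in wild type cells (limma, adjusted p = 0.007). It was not well above background on either knockout array, so its direction was fixed by the choice of miRNAs to test. Both arms of miR-140, a cartilage miRNA, fell, by 0.36 and, for miR-140*, by 0.52. miR-143, a smooth muscle and fibroblast miRNA, read -0.79 and -0.85 in knockout cells and -0.43 and -0.44 in wild type cells, and fell 1.31-fold (adjusted p = 0.00925).

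Of the miRNAs that were not well above background in knockout cells, miR-132 was at least 1.43-fold lower there. Its mean levels were -3.54 in knockout cells, which is the floor, and -3.01 in wild type cells (limma, adjusted p = 0.00794). miR-467b was at least 1.37-fold lower and miR-224 at least 1.24-fold lower, and in the summed signal miR-224 stood at 0.88 (limma, adjusted p = 0.0258). In the other direction, miR-149 was at least 1.43-fold higher in knockout cells. Its mean levels were -3.01 there and -3.54, the floor, in wild type cells (limma, adjusted p = 0.017). miR-146b, a feedback regulator of inflammatory signalling, was at least 1.43-fold higher. Its mean levels were -3.02 in knockout cells and -3.54, the floor, in wild type cells (adjusted p = 0.021). These bounds lie close to the floor of -3.54, and under a doubled floor all of them were at it in both genotypes.

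**Figure D3:**
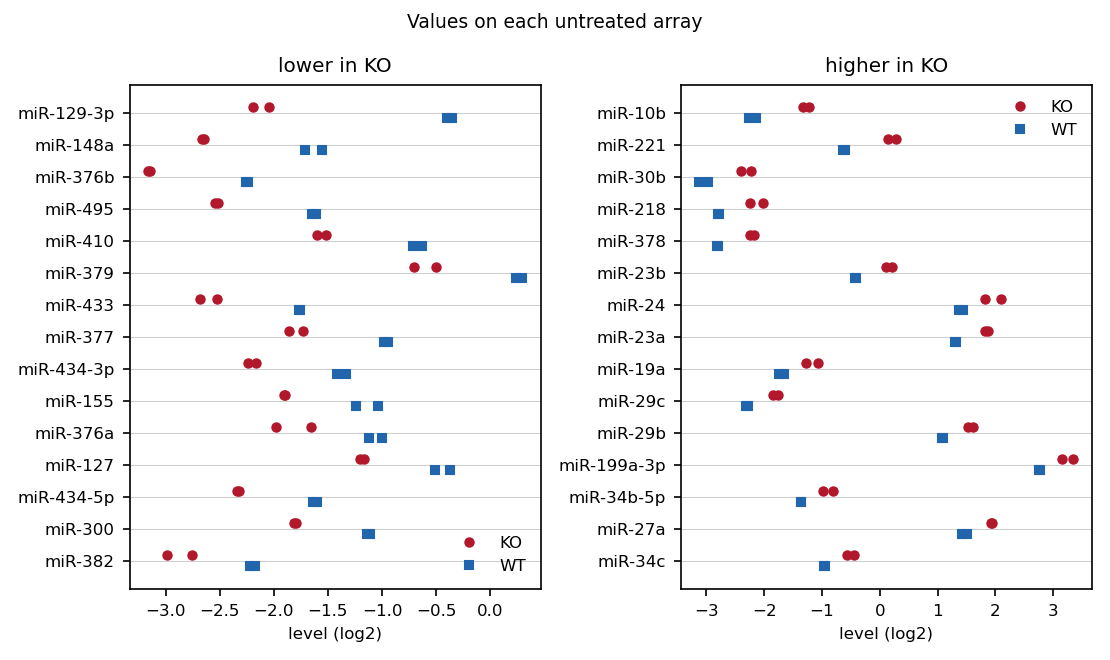
Level (log2) on each untreated array of the 15 largest measured falls and the 15 largest measured rises in knockout cells. Red circles are the 2 knockout arrays and blue squares the 2 wild type arrays, and for each of these 30 miRNAs the genotypes do not overlap, as the choice of miRNAs required.

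Under the main scaling the largest rises were smaller than the largest falls, and the rises lay more among bright miRNAs. The sizes depend on the scaling. With all probes in it, the 5 main strands of the clusters described next had a median of 0.83, against -0.44 in the Dlk1-Dio3 locus. The clusters of miR-23, miR-27 and miR-24, which regulate vessel growth and muscle and fat differentiation, made 7 tested strands, of which 6 rose, against 20.9% of all tested. The 5 main strands all passed, with a median of 0.56, and of the 2 passenger strands miR-24-1* passed and miR-24-2*, with 0.14, did not (adjusted p = 0.136). In the fit of all 12 arrays 1 of the 5 main strands was called, and 0 without wild type replicate 1 or 2. Of the cluster on chromosome 8, miR-23a read 1.87 and 1.82 in knockout cells and 1.29 and 1.32 in wild type cells (0.54 ± 0.05, adjusted p = 0.00507), and miR-27a rose by 0.46. Of the cluster on chromosome 13, miR-23b read 0.20 and 0.11 in knockout cells and -0.41 and -0.43 in wild type cells, a rise of 1.49-fold (0.58 ± 0.06, adjusted p = 0.0051). miR-27b read -1.35 and -1.54 in knockout cells and -2.31 and -2.30 in wild type cells, a rise of at least 1.81-fold, with 1 of 2 probes at the floor in wild type cells (adjusted p = 0.00507). It differs from miR-27a by C19U alone (miR-27a's base first), and how far their probes share signal was not tested. miR-24, made from both clusters, read 2.09 and 1.82 in knockout cells and 1.43 and 1.36 in wild type cells and rose 1.47-fold (adjusted p = 0.0223). miR-24-1*, the passenger strand from chromosome 13, was at least 1.32-fold higher in knockout cells, with mean levels of -3.12 there and -3.54, the floor, in wild type cells (limma, adjusted p = 0.007). After normexp its difference was -0.05.

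miR-221 and miR-222, made from 1 transcript on the X chromosome and known to lower the cell cycle inhibitor p27, both rose. miR-221 read 0.28 and 0.14 in knockout cells, against -0.64 and -0.61 in wild type cells, a rise of 1.78-fold (0.84 ± 0.07, limma, adjusted p = 0.00372). miR-222 read -2.13 and -2.52 in knockout cells, against -3.15 and -3.13 in wild type cells, a rise of at least 1.77-fold, with 1 of 2 probes at the floor in wild type cells (adjusted p = 0.017). Their mature sequences differ at 12 positions outside the seed, and their hairpins lie within 0.678 kb. Among single miRNAs, miR-30b read -2.23 and -2.39 in knockout cells and -3.12 and -2.98 in wild type cells (0.74 ± 0.09, adjusted p = 0.00722), on 1 probe. miR-218 rose 1.58-fold and miR-378, encoded in an intron of the metabolic coactivator gene Ppargc1b, rose 1.51-fold.

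Several larger families had medians above that of all tested miRNAs, with rises of moderate size; the share called higher of all tested miRNAs was 20.9% and the share called lower 33.1%. In the miR-29 family, which represses collagen and other matrix genes, 3 of 4 tested members rose, with a median of 0.43. miR-29a read 2.29 and 2.12 in knockout cells and 1.81 and 1.85 in wild type cells, miR-29b rose by 0.49 and miR-29c by 0.49. Of 9 tested members of the let-7 family, which holds back growth genes such as Hmga2, 4 rose and 0 fell, with a median of 0.23. let-7d rose by 0.41, let-7f by 0.40, let-7a by 0.28 and miR-98 by 0.23. let-7a stood at -0.02 after quantile normalization and miR-98 at -0.06 after normexp. Of 10 tested members of the growth-promoting miR-17~92 cluster and its paralogs, 6 rose and 0 fell, with a median of 0.31. They included miR-19a, with a rise of 0.53, miR-20a, with 0.41, miR-19b, with 0.40, miR-106b, with 0.40, and miR-92a, with 0.33. Of the p53-responsive miR-34 family, miR-34b-5p rose by 0.48 and miR-34c by 0.46, while miR-34a, from another chromosome, had 0.18 ± 0.09 (adjusted p = 0.153). Of 12 tested mesenchymal miRNAs 5 rose and 1, miR-143, fell, with a median of 0.23. The brightest riser, miR-199a-3p, read 3.35 and 3.15 in knockout cells and 2.77 and 2.76 in wild type cells, a rise of 1.40-fold (0.48 ± 0.09, adjusted p = 0.0168), and miR-214, made from the same transcript as a copy of it, rose by 0.41. For all of these families the list median was above 0 under the alternatives run, except that the mesenchymal median was 0 with no filter on dim probes. The let-7 median was as low as 0.02 and that of the miR-17~92 group as low as 0.01. The calls held less well than the medians: in the fit of all 12 arrays 0 of the 4 miR-29, 9 let-7, 10 miR-17~92 and 12 mesenchymal miRNAs were called, and likewise 0 of each without wild type replicate 1 or without wild type replicate 2. In the fit of 12 arrays the median untreated difference over all tested was -0.13, against 0.01 in the main fit. With the floor doubled 2 of the miR-29, 2 of the let-7 and 0 of the miR-17~92 miRNAs were higher, and of the mesenchymal ones 1 was higher and 2 were lower.

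miRNAs described as parts of or responders to the unfolded protein response made up a list of 20, of which 8 were tested. Of these, 2 rose and 1 fell, against 20.9% and 33.1% of all tested, with a median of 0.18. miR-106b rose, miR-96 fell, and miR-34a and miR-125b-5p did not pass.

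**Figure D4:**
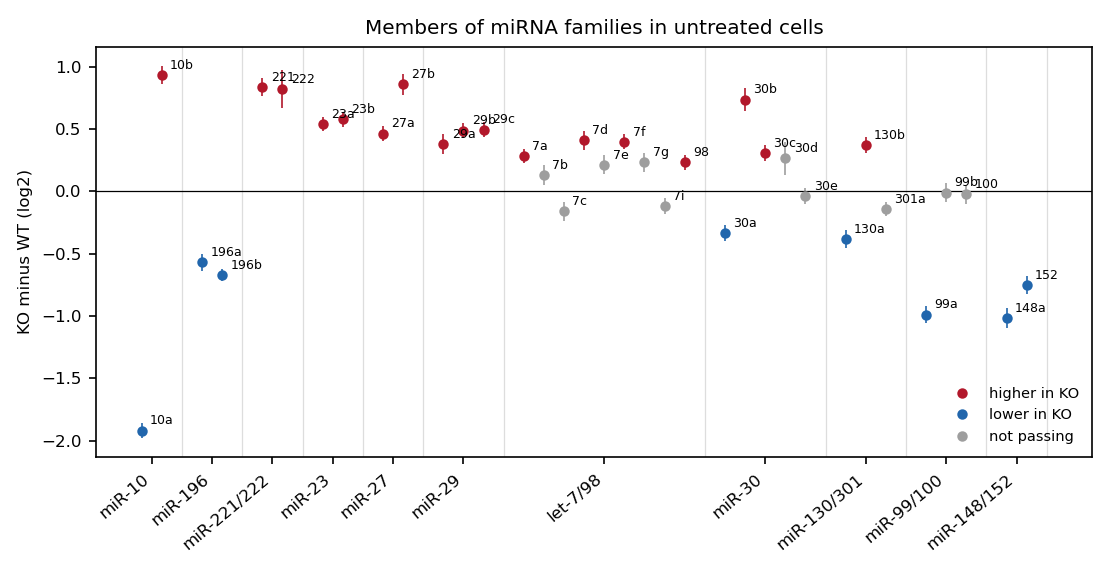
Knockout minus wild type difference (log2, bars are SE, 2 arrays per genotype) of the tested members of 11 miRNA families in untreated cells. Red points rose, blue points fell and grey points did not pass the test. miR-10a and miR-10b lie 2.85 apart and miR-221 and miR-222 nearly coincide. The signal floor limits miR-10a, miR-196b and single probes of miR-152, miR-99a, miR-222, miR-27b, miR-130b, miR-30c and miR-196a.

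Seed families were formed from the 133 tested mouse miRNAs with a RefSeq sequence, which leaves out miR-23b and miR-30b, among others. Of these families, 22 had 2 or more tested members, and in 3 of them members were called in opposite directions. Beside the miR-10 family these were miR-130a, which fell by 0.38, against miR-130b, with a rise of at least 0.37 (1 of 2 probes at the floor in wild type cells), and miR-30a, which fell by 0.33, against miR-30c, with a rise of 0.30 (1 of 2 probes at the floor on 3 of the 4 arrays). Genomic groups were formed from the 124 tested mouse miRNAs with 1 genomic locus, which leaves out miR-24, among others. Of 16 groups of these encoded within 50 kb of each other, 0 held calls in both directions. Those of miR-30a, miR-31, miR-140 and miR-574 are the 2 arms of 1 hairpin. Groups with no call, such as that of miR-31, or with 1, as that of miR-93 and miR-106b, could not hold both directions. The same is true of seed families with fewer than 2 calls, so neither 16 nor 22 counts only those that could. Among measured miRNAs with 1 genomic locus, the median gap between 2 differences was 0.14 for 87 pairs in the same genomic group, 0.20 for 31 pairs with the same seed in different groups and 0.47 for 3039 other pairs. With the Dlk1-Dio3 locus left out these gaps were 0.12 over 12 pairs, 0.19 over 30 pairs and 0.32 over 1909 pairs. Pairs share miRNAs and arrays, so the gaps are descriptions without a test. Probes for miRNAs that differ by 1 base, such as miR-29a and miR-29c, can share signal, and its part in the same-seed gap was not tested.

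The genotype difference of untreated cells was also set beside that of cells in tunicamycin, in a limma fit of all 12 arrays scaled on the 87 probes bright on every one. In that fit 49 of 175 miRNAs were called in untreated cells, 6 higher and 43 lower in the knockout. Its scaling moved the median untreated difference over all tested to -0.13, against 0.01 in the main fit, so the split depends on the scaling here too. The treated arrays are on another slide and their replicates lie farther apart, with an SD over miRNAs of the replicate difference of 0.715 to 1.19 against 0.204 to 0.206 for the untreated genotypes. This fit pools the spread over all groups, so a miRNA has the same SE in each condition, whichever arrays vary more. At 12 h 7.43% of the 175 were called and at 24 h 9.71%. miR-10a was at the floor of that fit on all 6 knockout arrays and above it on all 6 wild type arrays. Its differences of -1.91 untreated, -1.97 at 12 h and -2.19 at 24 h thus give only the height of the wild type arrays over the floor and are the least the falls can be. miR-10b had 0.76 ± 0.17, 0.86 ± 0.17 and 1.42 ± 0.17 in the same order (adjusted p = 0.0263 at 12 h and 0.00297 at 24 h). miR-96 was lower in knockout cells in all 3 conditions, with -0.69 ± 0.10, -0.87 ± 0.10 and -1.03 ± 0.10, and so was miR-322, with -0.85 ± 0.14, -1.05 ± 0.14 and -0.71 ± 0.14.

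The test of whether the genotype difference under tunicamycin, as the mean of both times, departs from that of untreated cells called 23 of 175 miRNAs, 13.1%, with 19 higher and 4 lower. It called 44 with array weights, 45 and 47 without knockout replicate 1 or 2 of the 12 h arrays, 13 without untreated knockout replicate 2 or untreated wild type replicate 1, and 15 without untreated wild type replicate 2. miR-23b was one of them and was well above background on all 12 arrays. On the scale of the 12-array fit it read -1.76 and -2.44 in knockout cells against -3.34 and -3.65 in wild type cells at 12 h, and -1.66 and -1.81 in knockout cells against -3.33 and -3.30 in wild type cells at 24 h. Its genotype difference was 0.41 ± 0.21 untreated, 1.39 ± 0.21 at 12 h and 1.57 ± 0.21 at 24 h, and the change was 1.08 ± 0.26 (adjusted p = 0.0359). miR-23a, with the same seed and from the other cluster, had 0.36 ± 0.17, -0.16 ± 0.17 and -0.18 ± 0.17, and its change of -0.53 ± 0.20 did not pass (adjusted p = 0.131, and 0.047 with the scanning run as a block). miR-148a had -1.19 ± 0.12 untreated, 0.04 ± 0.12 at 12 h and 0.24 ± 0.12 at 24 h, a change of 1.33 ± 0.14 (adjusted p = 0.000837). Of the 33 Dlk1-Dio3 miRNAs, 27 were lower in untreated knockout cells in this fit, 0 passed at 12 h and 0 at 24 h, with medians of -0.81, -0.26 and -0.21. The test of the change itself called 11 of the 33, all higher, against 13.1% of all tested, with a median change of 0.54. At 12 h 3 of the 33 and at 24 h 4 were well above background on all 4 arrays. The floor thus limits what could be seen at both times, and its part in these values was not tested. With all probes in the scaling, 0 changes were called (4 at an unadjusted p under 0.05).

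**Figure D5:**
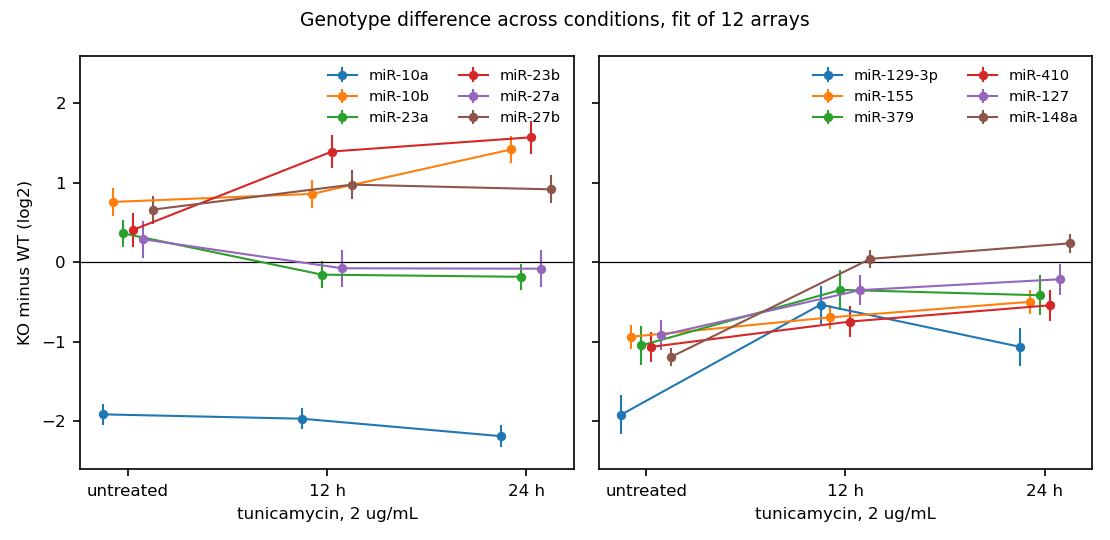
Knockout minus wild type difference (log2, limma fit of 12 arrays) of 12 miRNAs in untreated cells and after 12 and 24 h in 2 ug/mL tunicamycin. Bars are SE, with the spread pooled over groups of 2 arrays. miR-10a, whose knockout arrays are all at the floor, lies below miR-10b in all 3 conditions and the miR-23b and miR-23a differences separate under tunicamycin, while miR-148a goes to near 0.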

How the data were processed

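Total RNA was labelled with Cy3 and hybridised to single-colour miRNA arrays, and groups were taken from the sample labels. The authors deposited linear spot intensities, background-subtracted and unscaled, per the file headers, the scanner software being Agilent Feature Extraction, version 10.7.1.1 by the submitters' processing notes. Values of the deposited series table are on a log2 scale, and in 804 of 804 cases these matched, within 1e-05, the log2 of the signal that the scanner software sums per miRNA. From the spot intensities, control and outlier spots were left out and spots of a probe averaged (1857 probes, 650 miRNAs). Intensities were scaled by the array's 75th percentile, computed from 239 probes that were well above background on all 4 untreated arrays. Values under a floor of 0.0860, the median over arrays of the lowest signal well above background, were set to it before the log2 step. For each miRNA, probes well above background on both arrays of a genotype were averaged. Of 68 called mouse miRNAs with 2 or more used probes, 0 had probes of opposite sign. For a miRNA not well above background in a genotype, each array of that genotype contributed the highest of its own signal, its lowest signal well above background and the floor. Where a probe was at the floor in the dimmer genotype, the fold is likewise a lower bound.

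limma 3.58.1 in R 4.3.3 (lmFit, eBayes, 2 residual and 1.71 prior degrees of freedom) was fitted to the 4 arrays, with Benjamini-Hochberg adjustment over all tested miRNAs and a threshold of 0.05. The treated arrays vary more, so the fit of 12 arrays (6 residual degrees of freedom) served as an alternative and for the comparison with tunicamycin. Scanning runs, read from the file headers, coincide with the replicate numbers and pair the arrays, and were tried as a block. Alternatives covered scaling, background, summary, filter, floor and each array left out. In simulated data 39 of 172 miRNAs were changed, fewer than were called in the data, with directions drawn at random. The untreated fit recovered 33.4% of differences of 0.25, 71.4% of 0.5 and 88.5% of 1 log2 unit, with a mean of 1.48 false calls. The simulation had no floor effects, no correlation and no shift between scanning runs or from scaling, so it does not give the false calls of the data. The miRNAs named were the 15 largest measured rises and falls among calls with no overlap, the called ones dim in 1 genotype, up to 6 per list and the 10 brightest, beside relatives and miRNAs whose behaviour differed, named after their values were seen. The members and lists were chosen with earlier results of these data known. Array names were matched by hand to RefSeq arms, and 133 of the 171 mouse miRNAs had a sequence. p-values of the untreated fit measure only the spread between 2 arrays per genotype. In the fit of 12 arrays the spread is pooled over all 6 groups.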

Additional observations from a re-analysis of the deposited data

Results flagged for a closer look

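The 13 miRNAs given here are a part of the 23 of 175 called in the test of the change in genotype difference. That test set the genotype difference under tunicamycin, the mean of 12 and 24 h, against that of untreated cells (limma, fit of 12 arrays, adjusted p under 0.05). Of the 23, 19 were higher and 4 lower, and 11 were Dlk1-Dio3 miRNAs, most of which are not listed here. Each value is the genotype difference under tunicamycin minus that of untreated cells, on the log2 scale. miR-23b had 1.08 ± 0.26, miR-148a 1.33 ± 0.14, miR-152 0.64 ± 0.07, miR-99a 1.54 ± 0.14, miR-129-3p 1.12 ± 0.29 and miR-434-3p 0.97 ± 0.12. miR-210 had 0.73 ± 0.07, miR-132 0.49 ± 0.08 and miR-409-5p 0.39 ± 0.07. Below 0 were miR-222 with -0.62 ± 0.09, miR-196b with -0.50 ± 0.13, miR-218 with -0.34 ± 0.09 and miR-146b with -0.31 ± 0.07. miR-222, miR-210, miR-132, miR-409-5p and miR-146b were at the floor on all 8 treated arrays, so their values repeat the untreated difference with its sign turned. miR-196b was at the floor on all 6 knockout arrays, miR-218 on 5 of the 8 treated arrays, miR-99a on 4 and miR-152 on 3, so the floor limits these values too. miR-23b was well above background on all 12 arrays. With all probes in the scaling none of the 175 miRNAs passed in limma, with 4 at an unadjusted p under 0.05.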

How the results depend on the processing

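The 93 calls compare with 49 in the fit of 12 arrays (6 higher and 43 lower), 51 with all probes in the scaling, 36 with no scaling, 57 in the summed signal, 3 in the deposited table as it stands and 51 after median-centring, 58 with no filter (a fit in which limma warned that over 50% of residual variances were 0), 51 with the floor doubled, and 0 with scaling on the labelling spike-ins, the last chosen after seeing the data, as were the same scaling with the replicate block, with 72, and scaling without the Dlk1-Dio3 miRNAs, with 100. Leaving out each array gave 0 to 82. The pairing of arrays by scanning run gave 114 calls with the replicate block, the 93 among them in the same direction. The change of the genotype difference under tunicamycin gave 23 calls, 30 with the replicate block, 44 with array weights, 4 after quantile normalization, 0 with all probes in the scaling, and 13 to 47 with an array left out. The array-weight fit and those without an array let the lone or down-weighted array take the spread of the others. Over 79 named miRNAs and their alternatives, 1104 of 1725 values kept direction and side of the threshold, 520 lost and 22 gained the call, and 79 turned. In the summed signal those were miR-376b 0.62, miR-434-5p 1.16, miR-129-3p 0.11, miR-10a 0.88, miR-196b 1.45, miR-182 0.30, miR-224 0.88, miR-130b -1.53, miR-149 -0.40, miR-24-1* -1.93, miR-100 0.22, miR-99b 0.29, let-7i 0.16, miR-21 0.13, miR-22 0.0616 and miR-720 0.12. In the deposited table, in the same order, they were 0.64, 1.18, 0.13, 0.90, 1.47, 0.32, 0.90, -1.51, -0.39, -1.92, 0.24, 0.31, 0.18, 0.15, 0.0795 and 0.14. After median-centring they were miR-376b 0.38, miR-434-5p 0.92, miR-10a 0.64, miR-196b 1.21, miR-182 0.0630, miR-224 0.65, miR-130b -1.77, miR-149 -0.64, miR-24-1* -2.17, miR-99b 0.050 and miR-30c -0.0868. The turned direction passed the test for miR-10a, miR-196b, miR-434-5p and miR-224 in the summed signal and for miR-196b in the deposited table. After median-centring it passed for miR-10a, miR-196b, miR-434-5p, miR-224 and miR-149. With all probes in the scaling the uncalled miR-100 stood at 0.25, miR-99b at 0.26, let-7i at 0.16, miR-21 at 0.12, miR-22 at 0.0742 and miR-720 at 0.14. With no scaling they stood at 0.26, 0.27, 0.17, 0.13, 0.0854 and 0.16, and on the spike-ins, with or without the block, at 0.20, 0.22, 0.11, 0.0715, 0.0303 and 0.10. Quantile normalization gave miR-100 0.16, miR-99b 0.0915 and let-7a -0.0191, normexp gave miR-494 -0.12, miR-24-1* -0.0537 and miR-98 -0.0566, and the brightest probe gave miR-99b 0.0467. With an array left out, miR-100 ranged from -0.10 to 0.0507, miR-99b from -0.0843 to 0.0627 and miR-720 from -0.30 to 0.0395. The causes were not tested. Signal over background limits the dim miRNAs.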
